A study of Mus musculus with 23 samples.

Results

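Accessible chromatin was examined at 9 imprinted mouse genes: Airn, Igf2r, Kcnq1ot1, Peg13, Peg3, Usp29, Sgce, Slc38a4 and Zrsr1. They were chosen by name, as the genes of this group that the authors attached to at least 1 ATAC-seq peak, out of 11533 genes named across the 3 days. All 9 had a peak on day -2, 6 on day -1 and 8 on day 0. This gave 10 of 12268 gene-named peaks on day -2, 7 of 9692 on day -1 and 9 of 10134 on day 0, or 26 member peaks in all. On day -1 no peak carried the names Usp29, Slc38a4 or Zrsr1, and on day 0 none carried Zrsr1.

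An imprinted gene is transcribed mainly from the copy inherited from 1 parent, because DNA methylation laid down in the egg or the sperm marks the parental copies differently. The mark sits at a control region, often the promoter of a long noncoding RNA that silences its neighbours on the same chromosome. The unmethylated copy of such a region is usually open and the methylated copy closed. The deposited counts are not split by parental copy, so each value below is the sum over both.

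The cells were 3T3-L1, an established mouse line of fat cell precursors. ATAC-seq inserts sequencing adapters into open DNA with a transposase, and the reads are counted in peaks. On day -3, while sub-confluent, cells were given siRNA against Kdm5c or, in the arm named scramble, siRNA with no target, each at 50 nM, and chromatin was taken 24, 48 and 72 hours later, on days -2, -1 and 0. Each arm had 4 libraries a day, except Kdm5c siRNA on day 0 with 3, numbered 1, 2 and 4. Kdm5c encodes an X-linked enzyme that removes methyl groups from lysine 4 of histone H3. No other agent or allele is named in the labels, and both arms were transfected with the same lipid reagent. The labels do not say whether replicates were separate cultures, so p-values measure the spread between these libraries, which may be technical.

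Libraries held 781309 to 3345583 nuclear counts in peaks, and mitochondrial peaks took 56.4% to 93.2% of all counts. Nuclear counts were lowest on day -1, at 781309 to 1446979. The mitochondrial share was 56.4% to 70.0% with Kdm5c siRNA and 70.4% to 76.3% with scramble on day -2, 87.6% to 92.6% and 90.9% to 93.2% on day -1, and 78.8% to 86.75% and 87.5% to 91.4% on day 0. It thus moved with the day and, on days -2 and 0, with the arm, and its part in the results was not tested beyond the fits without mitochondrial peaks. Of 15 preadipocyte and fibroblast marker genes, 11, 9 and 9 had a named peak on the 3 days, among them Pdgfrb, Col1a1 and Prrx1. Of 5 markers of mature adipocytes only Lep had one, on days -2 and 0, and Adipoq, Plin1, Fabp4 and Cidec had none. Of the 4 epithelial markers 1, 0 and 0 had a named peak, of the 4 endothelial markers 2, 1 and 1, and of the 5 blood markers 1, 0 and 0.

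The promoter sequences of the genes on which the results turn differ most in their content of CG dinucleotides, the sites that imprinting methylates. RefSeq windows of GRCm38.p6, each 300 bases long from 250 bases before to 50 bases after a transcription start, were at hand for 7 of the 9 genes. They are shown 5′ to 3′ on the gene's own strand with every CG in capitals. The window of the noncoding RNA Airn and that of the gene it overlaps can thus be compared directly. The windows are Airn at chr17:12741061-12741360 on the plus strand, Igf2r at chr17:12769657-12769956 on the minus strand, Kcnq1ot1 at chr7:143296498-143296797 on the minus strand and Peg3 at chr7:6730370-6730669 on the minus strand.
Airn: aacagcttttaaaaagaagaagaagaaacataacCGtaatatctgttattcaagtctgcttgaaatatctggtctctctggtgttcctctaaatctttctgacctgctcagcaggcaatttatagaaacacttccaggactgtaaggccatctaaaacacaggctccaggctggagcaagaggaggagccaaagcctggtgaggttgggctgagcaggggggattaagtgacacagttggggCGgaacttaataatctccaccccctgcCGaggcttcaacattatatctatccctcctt
Igf2r: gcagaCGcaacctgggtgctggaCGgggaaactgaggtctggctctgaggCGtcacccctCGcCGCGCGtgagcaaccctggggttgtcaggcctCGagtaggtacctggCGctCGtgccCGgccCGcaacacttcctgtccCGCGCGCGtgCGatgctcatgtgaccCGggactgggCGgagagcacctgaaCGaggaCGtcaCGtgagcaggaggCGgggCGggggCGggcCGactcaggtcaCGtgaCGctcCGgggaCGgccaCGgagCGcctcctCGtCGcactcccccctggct
Kcnq1ot1: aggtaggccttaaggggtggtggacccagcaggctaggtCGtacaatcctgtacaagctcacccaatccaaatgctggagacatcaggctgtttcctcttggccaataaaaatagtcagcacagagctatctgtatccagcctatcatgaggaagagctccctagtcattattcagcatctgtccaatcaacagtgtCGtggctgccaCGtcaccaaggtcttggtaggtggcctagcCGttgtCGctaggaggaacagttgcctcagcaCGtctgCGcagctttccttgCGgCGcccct
Peg3: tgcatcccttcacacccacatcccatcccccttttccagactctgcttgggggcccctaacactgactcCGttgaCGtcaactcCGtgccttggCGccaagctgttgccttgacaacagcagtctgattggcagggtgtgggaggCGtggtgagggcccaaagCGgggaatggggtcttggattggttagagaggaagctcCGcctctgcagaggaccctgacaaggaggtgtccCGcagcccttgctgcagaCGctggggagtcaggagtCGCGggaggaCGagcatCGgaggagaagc
The Airn window holds 3 CG dinucleotides and is 45.7% G and C, while the Igf2r window holds 34 and is 70.7% G and C. The Airn peak of day -2 was 599 bp wide, and the Airn window covers only 139 bp of it. These counts describe the windows alone, not the rest of a peak or a whole control region. Peg3 has 13 and Kcnq1ot1 has 9. The Usp29 window, at chr7:6730333-6730632 on the plus strand, shares 263 of its bases with the Peg3 window on the opposite strand and holds 17. Zrsr1 has 10, and each of the 3 Slc38a4 windows has 5. Over all 32851 windows the median is 7 and the quartiles are 3 and 20, so Igf2r exceeded 92.3% of windows in CG count and Airn exceeded 23.3%. The 3 short motifs searched on both strands were TGCCGC for Zfp57, GCCATNTT for Yy1 and GGNGGCAG for Ctcf, and no match overlapped another. The 9 windows held 1 Yy1 and 1 Ctcf match, each in a different Slc38a4 window, where 11.6%, 6.05% and 12.6% of all windows hold the Zfp57, Yy1 and Ctcf letters. These matches describe letters in a window and are not binding sites.

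Most member peaks lay on a transcription start. On day -2 the Airn, Igf2r, Kcnq1ot1, Peg3, Slc38a4 and Zrsr1 peaks each held the start of their gene, with the centre 9 to 210 bp from it. Airn and Igf2r start 28395 bp apart and are transcribed towards each other, and the Airn start lies inside the span of Igf2r. The Airn peak on day -2 was 17:12741222-12741821, centred 210 bp inside Airn, and the Igf2r peak was 17:12769111-12770003, centred 149 bp inside Igf2r. Peg3 and Usp29 start only 164 bp apart on opposite strands. The Peg3 peak, 7:6730258-6730599 on day -2, held both starts, with the Usp29 start at 6730583 near its edge. The peak the authors named Usp29, 7:6729397-6729725, did not hold the Usp29 start: it lay inside the span of Peg3, with its centre at -1022 bp relative to that start, where minus is upstream. For Sgce and Peg13 no strand or start was at hand. The Sgce peak of day -2, 6:4746723-4747672, covered the end of the Sgce span at 4747204, beyond which lies the imprinted gene Peg10. A second Sgce peak, 6:4747882-4748271, was found on day -2 alone and lay outside the Sgce span. The annotation used gives gene spans and starts, not exons or introns.

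**Figure D1:**
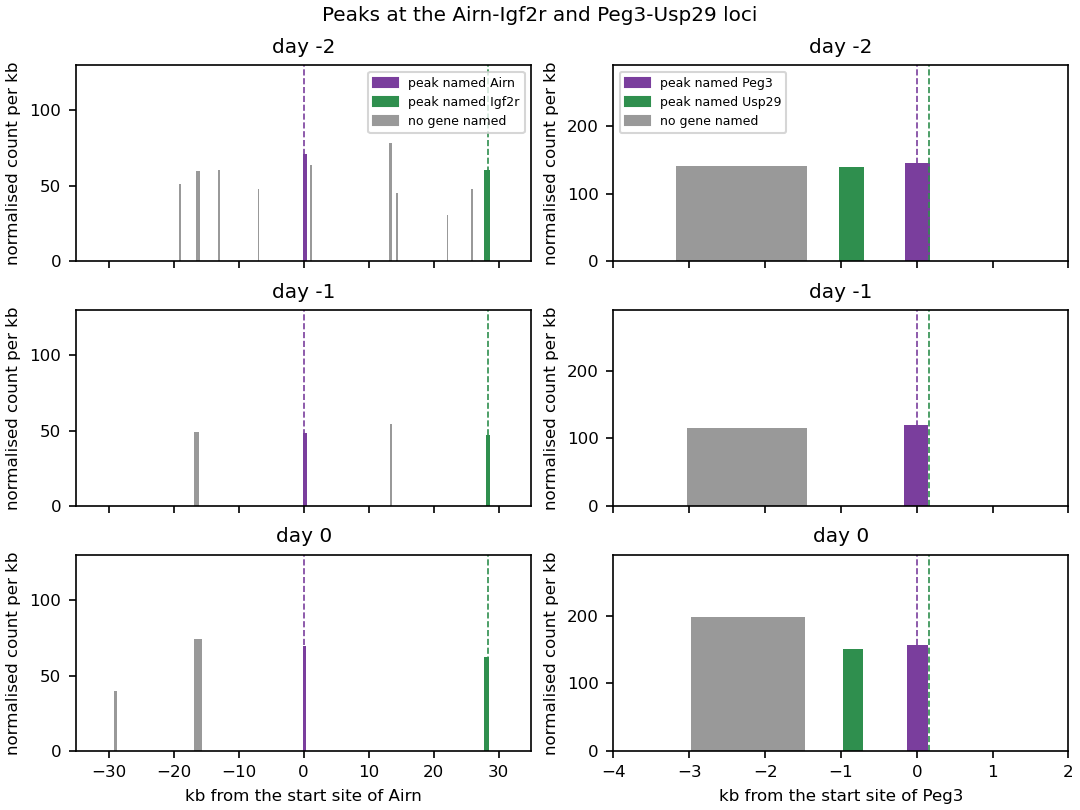
Peaks within 35 kb of the Airn start (left) and from 4 kb before to 2 kb after the Peg3 start along the chromosome (right), 1 row of panels per day. Bars span each peak and their height is the mean normalised count per kb over that day's libraries, scaled within the day. Dashed lines mark the start sites of the paired genes, 28395 bp apart on the left and 164 bp apart on the right; the Peg3 peak holds the Peg3 start on each day and the Usp29 start on day -2 alone. A wide peak with no gene name lies inside Peg3 on each day, and the peak named Usp29 does so on days -2 and 0.

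Accessibility per length was highest at Peg3 and Usp29, and the other members lay below them. Levels here are normalised counts per kb of peak, where a normalised count is the raw count divided by the library's relative effective size within its day. On day -2 they were 144.8 ± 19.3 (SD, n = 8 libraries of both arms) at Peg3, 138.7 ± 19.85 at Usp29, 102.9 ± 25.8 at Kcnq1ot1 and 92.65 ± 24.4 at Slc38a4. Below these came the larger Sgce peak at 73.8 ± 19.4, Peg13 at 71.0 ± 8.40, Airn at 71.0 ± 16.6, the smaller Sgce peak at 70.6 ± 12.3, Igf2r at 60.3 ± 16.8 and Zrsr1 at 51.3 ± 28.5. Only the step from Usp29 to Kcnq1ot1 was larger than the SDs of the peaks on either side of it; the other neighbours in this order did not differ beyond their spread. The step below the Peg3-Usp29 group was the only such step on the other days too. On day -1 Peg3 stood at 120.4 ± 22.1 and the next, Peg13, at 67.8 ± 14.7 (n = 8), and on day 0 Usp29 stood at 150.5 ± 26.8 and the next, Sgce, at 79.4 ± 21.1 (n = 7). Set among all gene-named nuclear peaks, Peg3 was above 90.6%, 94.4% and 95.45% of them per kb on the 3 days. Igf2r was above 19.4%, 18.2% and 26.7% per kb. In total count Igf2r was above 49.7%, 33.1% and 48.4% of them, with a peak 892, 570 and 784 bp wide. In total count the members were small: 21 of the 26 peaks lay below the median gene-named peak of their day, and their raw counts ran from 2 to 122 per library. Peg3 was among these 21 on each day, above 46.5%, 48.2% and 44.0% of gene-named nuclear peaks in total count. Its peak was 341, 315 and 283 bp wide, where the median such peak was 649, 625 and 669 bp. The part of peak width in the order per kb was not tested.

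No member peak passed the test for a difference between Kdm5c siRNA and scramble. The test was edgeR's quasi-likelihood test within each day, and a peak was called at a Benjamini-Hochberg adjusted p under 0.05 over all peaks tested. Counts were too low to test for 2 of the 26, the smaller of 2 Peg13 peaks on day -1 and the smaller of 2 Slc38a4 peaks on day 0. Of the members tested, 0 of 10 were called on day -2, against 2 of 49455 peaks or 0.00404%. On day -1 it was 0 of 6, against 0 of 23304 or 0%, and on day 0 it was 0 of 8, against 1 of 28398 or 0.00352%. DESeq2 called 0 peaks on each day. An unadjusted p under 0.05 was reached by 0, 2 and 0 members, Airn and Kcnq1ot1 on day -1, where 4.63%, 5.38% and 5.99% of all peaks tested reached it; by DESeq2 it was reached by 1 member, Airn on day -1. The median member fold change was 0.01, 0.31 and -0.12 on the log2 scale on days -2, -1 and 0, beside 0.00, -0.00 and -0.01 over all peaks tested. On day -2, 5 members had values above 0 and 5 below, on day -1 4 and 2, and on day 0 2 and 6. The standard errors of the member fold changes ranged on day -2 from 0.18 to 0.61, from 0.21 to 0.29 on day -1, and from 0.22 to 0.56 on day 0. In counts simulated at this depth, 66.5%, 73% and 56.5% of peaks changed by 1 log2 unit were called on the 3 days. The simulation changed 200 peaks at once, none with counts as low as those of Zrsr1 or of Slc38a4 on day 0. All peaks and days were given the same dispersion between libraries, which was set by hand and not taken from the real counts. The real counts gave 2, 0 and 1 called peaks, and the adjustment is stricter where few peaks change. These shares are therefore not the share of changed members that would be called. Scaled by total counts in place of the TMM factors of edgeR, the median peak moved by 0.44, 0.38 and 0.56 on the 3 days, so the signs below are relative to the bulk of peaks and 11 of the 13 member values below 0 are above 0 under that scaling.

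**Figure D2:**
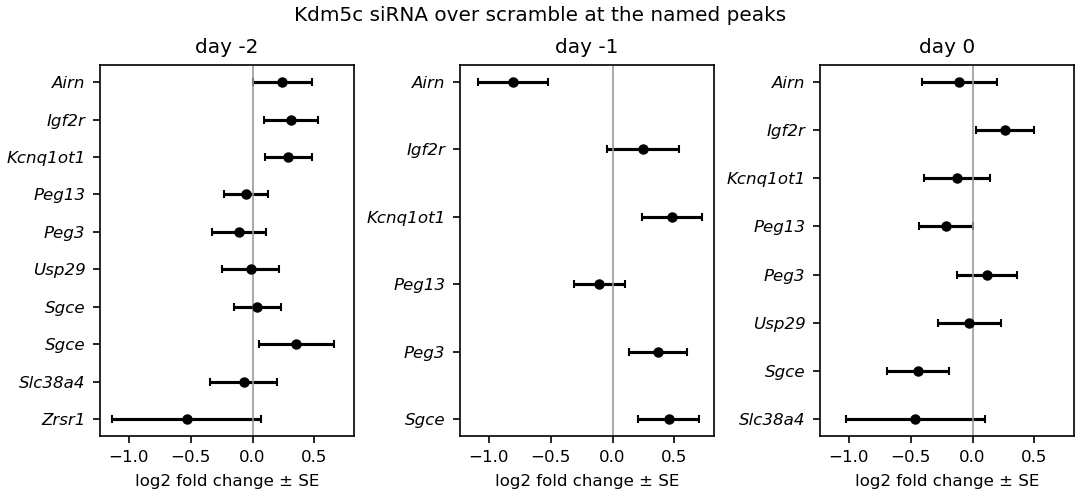
Log2 fold change of Kdm5c siRNA over scramble at each member peak tested, 1 panel per day; points are edgeR estimates and bars their standard errors. Values lie from -0.53 to 0.36 in the day -2 panel, from -0.81 to 0.48 in the day -1 panel and from -0.46 to 0.26 in the day 0 panel, and the Airn peak of day -1 is farthest from 0. Of the 2 Sgce points on day -2, the lower one in the panel is the smaller peak.

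At the Airn-Igf2r locus the noncoding RNA and the receptor gene were read side by side. Airn is transcribed from the paternal copy and silences Igf2r there; Igf2r encodes the mannose 6-phosphate receptor, which carries insulin-like growth factor 2 to lysosomes. On day -2 the Airn peak had 60.7, 39.2, 45.8 and 40.7 normalised counts in Kdm5c siRNA replicates 1 to 4 and 26.6, 35.4, 44.4 and 47.5 in scramble replicates 1 to 4. The arms overlapped, and the log2 fold change was 0.24 (SE 0.24, edgeR adjusted p = 0.98). On day -1 Airn had 18.0, 20.9, 21.2 and 20.99 with Kdm5c siRNA and 28.8, 60.5, 23.8 and 26.7 with scramble. Every Kdm5c siRNA library was below every scramble library, with means of 20.3 ± 1.51 (SD, n = 4) and 34.9 ± 17.1 (n = 4), while scramble replicate 2 stood far above the other scramble libraries. The log2 fold change was -0.81 (SE 0.28), with an unadjusted p of 0.00541 and an adjusted p of 0.86, so it was not called. Without scramble replicate 2 it was -0.39 with an adjusted p of 0.92. Airn was the only member whose arms did not overlap: 0 of 10, 1 of 6 and 0 of 8 members tested, against 2.87%, 3.27% and 6.22% of all peaks tested on the 3 days. On day 0 Airn had 38.9, 30.7 and 18.1 in Kdm5c siRNA replicates 1, 2 and 4 and 28.1, 30.8, 31.9 and 29.5 with scramble. There the scramble libraries were close together and the Kdm5c siRNA libraries lay on both sides of them, at -0.11 (SE 0.30, adjusted p = 0.98).

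Igf2r had the same sign on all 3 days, with arms that overlapped on each. On day -2 it had 54.5, 83.0, 48.3 and 52.7 normalised counts with Kdm5c siRNA and 50.6, 30.2, 63.1 and 48.3 with scramble. The log2 fold change there was 0.31 (SE 0.22, adjusted p = 0.98 by edgeR). On day -1 it had 36.0, 41.75, 22.25 and 17.4 with Kdm5c siRNA and 24.9, 26.05, 18.2 and 26.7 with scramble, or 0.25 (SE 0.29, adjusted p = 0.97). Here 2 Kdm5c siRNA libraries were above all scramble libraries and 1 was below them all. On day 0 it had 63.0, 72.55 and 29.1 with Kdm5c siRNA replicates 1, 2 and 4 and 37.1, 59.4, 30.7 and 48.3 with scramble, or 0.26 (SE 0.23, adjusted p = 0.93). Without Kdm5c siRNA replicate 2 of day 0 the value was below 0, at -0.04. Airn and Igf2r thus had opposite signs on days -1 and 0 and the same sign on day -2, and none of these 6 values was called.

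Kcnq1ot1 and Peg13, the other long noncoding RNAs, did not pass the test either. Kcnq1ot1 is transcribed from the paternal copy inside Kcnq1 and silences a cluster of genes around it. Its peak, 7:143296356-143297015 on day -2, had 48.3, 92.0, 95.7 and 59.9 normalised counts with Kdm5c siRNA and 63.25, 55.1, 66.1 and 61.9 with scramble. The scramble libraries were close together while 2 of the Kdm5c siRNA libraries were above all of them and 1 was below, and the log2 fold change was 0.29 (SE 0.19, edgeR adjusted p = 0.98). On day -1 the values were 44.05, 42.9, 35.4 and 49.2 against 27.8, 28.8, 18.2 and 47.0. All Kdm5c siRNA libraries were above 3 of the 4 scramble libraries, at 0.48 (SE 0.24, unadjusted p = 0.0497, adjusted p = 0.92). Without scramble replicate 4 this was 0.76, and without scramble replicate 3 it was 0.33. On day 0 the values were 34.8, 34.4 and 36.8 against 37.1, 35.2, 51.6 and 30.85, and the fold change was -0.12 (SE 0.27, adjusted p = 0.98). Peg13 is transcribed from the paternal copy inside Trappc9, and its peak was the widest member peak at 1123 bp on day -2. It had 85.5, 68.6, 69.5 and 89.8 with Kdm5c siRNA and 79.7, 94.45, 74.0 and 76.4 with scramble on day -2, at -0.06 (SE 0.18, adjusted p = 0.99). Its values on days -1 and 0 were -0.11 (SE 0.21) and -0.21 (SE 0.22), with overlapping arms. The smaller Peg13 peak of day -1 had only 3 to 14 raw counts per library and was not tested.

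Peg3 and Usp29, which start 164 bp apart and are read away from each other, are both transcribed from the paternal copy. Peg3 encodes a zinc finger protein and Usp29 a ubiquitin-specific protease. On day -2 the Peg3 peak had 42.1, 54.3, 54.8 and 37.1 normalised counts with Kdm5c siRNA and 54.4, 52.5, 52.3 and 47.5 with scramble, and the log2 fold change was -0.11 (SE 0.22, adjusted p = 0.99 by edgeR). The peak named Usp29 had 45.9, 44.5, 50.7 and 39.5 against 36.7, 51.2, 55.2 and 40.2 there, at -0.01 (SE 0.23, adjusted p = 0.998). In both peaks the arms overlapped. On day -1, with no peak named Usp29, the Peg3 peak had 40.05, 45.2, 41.5 and 44.1 with Kdm5c siRNA and 26.8, 30.7, 32.2 and 42.7 with scramble. Only scramble replicate 4 reached the Kdm5c siRNA libraries, and the fold change was 0.37 (SE 0.23, unadjusted p = 0.12, adjusted p = 0.93). On day 0 the Peg3 peak had 63.0, 36.3 and 42.3 with Kdm5c siRNA replicates 1, 2 and 4 and 44.95, 29.7, 54.05 and 41.6 with scramble, at 0.12 (SE 0.24, adjusted p = 0.98). The peak named Usp29 had 29.5, 44.65 and 45.0 against 50.6, 37.4, 34.4 and 42.9, at -0.02 (SE 0.25, adjusted p = 0.99). Kdm5c siRNA replicate 1 of day 0 was the highest library at Peg3 and the lowest at Usp29.

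The largest peak of the Peg3 locus carried no gene name and was chosen here after its values were seen. On day -2 it was 7:6727242-6728975, a 1733 bp peak inside the span of Peg3, centred 2311 bp from its start. It had 199.5, 196.1, 239.7 and 229.9 normalised counts in Kdm5c siRNA replicates 1 to 4 and 292.2, 278.1, 259.5 and 251.8 in scramble replicates 1 to 4. All Kdm5c siRNA libraries were below all scramble libraries, where the arms did not overlap at 2.87% of all peaks tested that day. The log2 fold change of the unnamed peak was -0.32 (SE 0.13, unadjusted p = 0.0168) and was not called, at an edgeR adjusted p of 0.98. On day -1 it had 170.2, 187.9, 168.9 and 222.9 against 178.3, 172.1, 156.7 and 195.5, or 0.10 (SE 0.13, adjusted p = 0.98). On day 0 it had 321.6, 295.8 and 295.5 against 288.8, 281.8, 315.7 and 292.4, or 0.04 (SE 0.13, adjusted p = 0.99). The arms overlapped on both of these days.

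The protein-coding members Sgce, Slc38a4 and Zrsr1 did not pass the test on any day on which they were tested. Sgce, transcribed from the paternal copy, encodes a sarcoglycan of the cell membrane. Its larger peak had 54.5, 91.3, 62.2 and 75.4 normalised counts with Kdm5c siRNA and 94.9, 45.9, 54.3 and 82.0 with scramble on day -2, which gave a log2 value of 0.04 (SE 0.19, adjusted p = 0.997 by edgeR). On day -1 it had 39.05, 41.75, 52.6 and 31.1 against 34.5, 24.2, 28.0 and 32.1, with 3 of the 4 Kdm5c siRNA libraries above all scramble libraries, at 0.45 (SE 0.25, unadjusted p = 0.0665, adjusted p = 0.93). On day 0 the mean was lower with Kdm5c siRNA, with 40.2, 27.9 and 36.25 against 34.8, 52.8, 60.2 and 40.2, at -0.44 (SE 0.25, unadjusted p = 0.0809, adjusted p = 0.87). The smaller Sgce peak of day -2 had 0.36 (SE 0.30, adjusted p = 0.98). Slc38a4 encodes an amino acid transporter and is transcribed from the paternal copy. Its peak of day -2, 15:97055726-97056095, had 27.3, 21.1, 33.5 and 52.7 with Kdm5c siRNA and 32.9, 34.1, 36.5 and 35.4 with scramble, so that the scramble libraries lay within the Kdm5c siRNA range, at -0.07 (SE 0.27, adjusted p = 0.996). On day 0 the tested Slc38a4 peak, 15:97055362-97055584, did not overlap the peak of day -2. Its centre was 483 bp from the Slc38a4 start, which it did not hold. It had 5 to 19 raw counts per library and -0.46 (SE 0.56, adjusted p = 0.96). The peak that held the start on day 0, 15:97055935-97056062, was the untested one. Zrsr1, a copy of a splicing factor gene that sits inside Commd1 and is transcribed from the paternal copy, had 2 to 13 raw counts per library on day -2 and -0.53 (SE 0.61, adjusted p = 0.98).

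**Figure D3:**
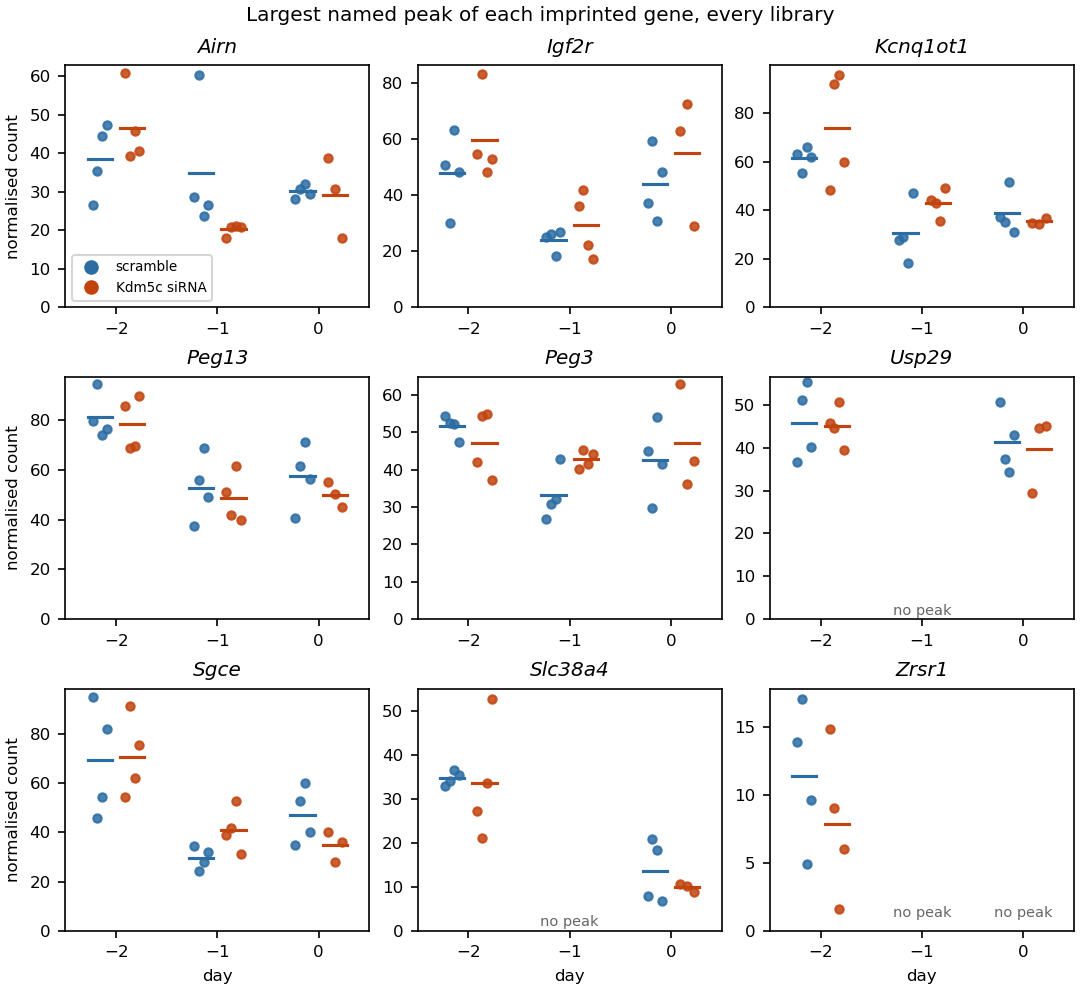
Normalised counts of the largest named peak of each gene in every library, by day and arm; dots are libraries, lines are arm means, and each axis starts at 0. Counts are scaled within a day, so days are not compared here. In Airn on day -1 the Kdm5c siRNA libraries lie at 18.0 to 21.2 and the scramble libraries at 23.8 to 60.5, while the arms of every other gene overlap on every day.

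The peaks with no gene name inside a member gene or within 10 kb of it numbered 49, 18 and 24 on the 3 days, of which 28, 11 and 18 were tested. None was called by edgeR, and 4 of 28, 0 of 11 and 2 of 18 had an unadjusted p under 0.05, where 4.63%, 5.38% and 5.99% of all peaks tested did. Their fold changes ran from -0.85 to 0.84 on day -2, from -0.41 to 0.41 on day -1 and from -0.77 to 0.94 on day 0. Those 6 were named after their values were seen. On day -2 they were the Peg3 peak above, a peak beyond the end of the Sgce span, 6:4748849-4749445, at -0.38 and a pair of peaks inside Slc38a4 at -0.72 and -0.61. On day 0 they were a peak inside Airn, 17:12782995-12783374, at -0.77 (SE 0.27, adjusted p = 0.71) with all Kdm5c siRNA libraries below all scramble libraries, and a peak near Peg13, 15:72801244-72801759, at 0.61 (SE 0.30, adjusted p = 0.82). Arms did not overlap at 6.22% of all peaks tested on day 0. Among the unnamed peaks this also held inside Igf2r, 17:12724461-12725700, at -0.28 (SE 0.17, adjusted p = 0.89). It held too at an untested peak inside Peg13, 15:72809539-72809730. In both, Kdm5c siRNA was lower. The Airn peak of day 0 overlaps a wider peak of day -2, 17:12782995-12783557, whose value was 0.15 (SE 0.23, adjusted p = 0.99).

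The pairs were also compared within each library, which needs no scaling between libraries. The log2 ratio of the raw counts of Airn to Igf2r, with 0.5 added to each, was 0.15, -1.07, -0.07 and -0.37 in the Kdm5c siRNA libraries of day -2 and -0.91, 0.23, -0.50 and -0.02 in the scramble libraries. The means were -0.34 ± 0.53 (SD, n = 4) and -0.30 ± 0.51 (n = 4), a difference of -0.04 (two-sided exact permutation p = 0.914). On day -1 the ratios were -0.98, -0.98, -0.07 and 0.27 with Kdm5c siRNA and 0.20, 1.20, 0.37 and 0 with scramble. The scramble libraries were at 0 or above and 3 of the 4 Kdm5c siRNA libraries below, and the arms overlapped. The means were -0.44 ± 0.64 and 0.44 ± 0.53 (n = 4 each), a difference of -0.88 (exact permutation p = 0.0857), and without scramble replicate 2 it was -0.63 (exact p = 0.2). Without Kdm5c siRNA replicate 4 it was -1.12 (exact p = 0.0286, the smallest that design allows). On day 0 the means were -0.86 ± 0.32 (n = 3) and -0.49 ± 0.43 (n = 4), a difference of -0.37 (exact permutation p = 0.343). The Peg3 to Usp29 ratio stayed closer to 0, with means of 0.05 ± 0.19 and 0.19 ± 0.28 (n = 4 each) on day -2, a difference of -0.14 (exact permutation p = 0.486). On day 0 its means were 0.23 ± 0.74 (n = 3) and 0.03 ± 0.43 (n = 4), a difference of 0.20 (exact permutation p = 0.6), and without Kdm5c siRNA replicate 1, whose ratio was 1.08, it was -0.22. These were 5 tests in all, and the Benjamini-Hochberg adjusted p over them was 0.43 for Airn to Igf2r on day -1 and 0.75 or more for the others. The smallest p that any of these designs allows is 0.0286.

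**Figure D4:**
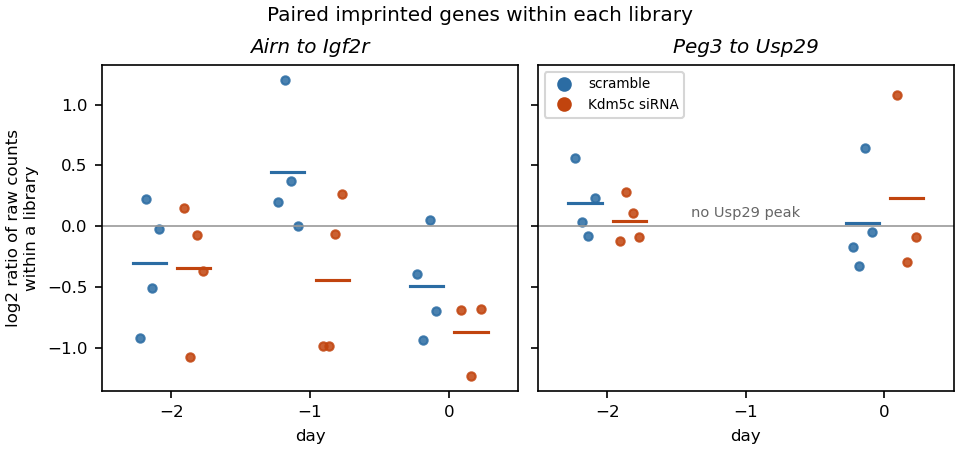
Log2 ratio of raw counts within each library for Airn over Igf2r (left) and Peg3 over Usp29 (right), by day and arm; dots are libraries and lines arm means. Ratios of Airn to Igf2r range from -1.23 to 1.20 and those of Peg3 to Usp29 from -0.33 to 1.08, and the arms overlap on every day.

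Whether the siRNA effect differed between days was tested on peaks matched 1 to 1 across the days by a reciprocal overlap of 50%. Of the 13674 peaks tested, 6 were member peaks: Airn, Igf2r, Kcnq1ot1, Peg13, Peg3 and the larger Sgce peak. edgeR called 0 of 6 members in each pair of days, and 0% of all matched peaks. An unadjusted p under 0.05 was reached by 1, 1 and 0 members for day -1 against -2, day 0 against -1 and day 0 against -2, where 4.92%, 5.21% and 6.4% of all matched peaks reached it. The first was Airn, whose effect was lower by 1.06 log2 units on day -1 than on day -2: -1.06 (SE 0.38, unadjusted p = 0.00589, adjusted p = 0.96). Without scramble replicate 2 of day -1 this was -0.65. The second was Sgce, with -0.91 (SE 0.35, unadjusted p = 0.0101, adjusted p = 0.87) for day 0 against day -1. For Igf2r the differences between days were -0.09, 0.01 and -0.08 with standard errors of 0.37, 0.40 and 0.35. Usp29 could be matched on days -2 and 0 alone, in a fit added after the data were seen, where its effects differed by -0.04 (SE 0.33, adjusted p = 0.99).

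Differences between days, averaged over the arms, were called at 3 member peaks. In this fit all 23 libraries are scaled together, so these are differences relative to the bulk of matched peaks. From day -2 to day 0 the Kcnq1ot1 peak fell by 0.51 on the log2 scale (SE 0.16, edgeR adjusted p = 0.0106) and the Sgce peak fell by 0.43 (SE 0.16, adjusted p = 0.03). Those were 2 of 6 members called lower and 0 called higher, where 16.4% of all matched peaks were called lower and 15.7% higher. From day -1 to day 0 the Igf2r peak rose by 0.54 (SE 0.19, adjusted p = 0.0398), 1 of 6 called higher and 0 lower, where 6.67% of all were called higher and 9.05% lower. From day -2 to day -1 none of the 6 was called, where 8.91% of all were called higher and 8.26% lower. Within the scramble libraries alone none of the members was called in any pair of days, where 5.73%, 6.86% and 20.6% of all matched peaks were called for day -1 against -2, day 0 against -1 and day 0 against -2. There Kcnq1ot1 had -0.28 (adjusted p = 0.42) and Sgce -0.18 (adjusted p = 0.63) for day 0 against day -2, and Igf2r had 0.54 (adjusted p = 0.24) for day 0 against day -1. Within the Kdm5c siRNA libraries alone Kcnq1ot1 had -0.73 and Sgce -0.69 for day 0 against day -2, both called (adjusted p = 0.022 and 0.0344), where 7.69% of all matched peaks were called lower. Scaled over the days, Kcnq1ot1 averaged 48.7 ± 4.02 (SD, n = 4), 39.4 ± 15.4 (n = 4) and 40.1 ± 9.32 (n = 4) with scramble on days -2, -1 and 0, and 59.25 ± 18.95 (n = 4), 55.7 ± 7.69 (n = 4) and 36.3 ± 1.44 (n = 3) with Kdm5c siRNA. The difference of the siRNA effect between these days was -0.45 (SE 0.33, adjusted p = 0.85), so the arms were not shown to differ.

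These differences moved with the width of the peaks, which were called separately on each day. The Sgce peak was 949, 550 and 526 bp wide on the 3 days, the Igf2r peak 892, 570 and 784 bp and the Kcnq1ot1 peak 659, 568 and 571 bp. When the fit was given the peak widths as an offset, so that it compared counts per length, Sgce was higher on day 0 than on day -2 by 0.41 (edgeR adjusted p = 0.0485) and the direction turned. Under this offset the whole table shifted upwards from day -2: the median matched peak stood at 0.16 on day -1 and 0.11 on day 0 relative to day -2, 19.9% and 18.5% of all were called higher, and 2.16% and 6.82% lower. For day 0 against day -1, 3.2% were called higher and 8.21% lower, and no member. Kcnq1ot1 had -0.30 for day 0 against day -2 (adjusted p = 0.17) and Igf2r had 0.08 for day 0 against day -1 (adjusted p = 0.83). Per length, Peg3 and Peg13 were called higher on day 0 than on day -2, by 0.47 (adjusted p = 0.02235) and 0.36 (adjusted p = 0.0445), and Peg3, Peg13 and Sgce on day -1 than on day -2, by 0.42, 0.63 and 0.47 (adjusted p = 0.0485, 0.000211 and 0.0249). The Igf2r call was also lost without 9 of the 23 libraries, each left out in turn, with values down to 0.39 without Kdm5c siRNA replicate 2 of day 0. The Sgce call from day -2 to day 0 was lost without 6 of them, with values of -0.34 to -0.40. The lower nuclear counts of days -1 and 0 and the higher mitochondrial share moved with these differences too, and their part was not tested.

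The unnamed peak inside Peg3, followed after its values were seen, rose from each day to the next relative to the bulk over both arms, by 0.30 (edgeR adjusted p = 0.00609) and 0.38 (adjusted p = 0.000486); neither arm alone had both steps called. With scramble alone the first step was 0.10 (adjusted p = 0.71) and the second 0.42 (adjusted p = 0.016), and with Kdm5c siRNA alone the first was 0.50 (adjusted p = 0.002925) and the second 0.35 (adjusted p = 0.0883). With scramble it averaged 213.8 ± 16.6 (SD, n = 4), 227.4 ± 20.4 (n = 4) and 305.1 ± 14.3 (n = 4) on days -2, -1 and 0, and with Kdm5c siRNA 172.8 ± 12.4 (n = 4), 243.6 ± 33.95 (n = 4) and 312.5 ± 17.6 (n = 3). In both arms every library of day 0 was above every library of day -2 and day -1. From day -2 to day 0 it rose by 0.68 (SE 0.08, edgeR adjusted p = 1.93e-11) over both arms, by 0.52 (adjusted p = 0.000289) with scramble alone and by 0.85 (adjusted p = 3.71e-08) with Kdm5c siRNA alone. The arms were not shown to differ in any of these rises. From day -2 to day -1 the siRNA effect differed by 0.40 (SE 0.17, unadjusted p = 0.0165, edgeR adjusted p = 0.96). The difference was -0.07 (SE 0.17, adjusted p = 0.99) from day -1 to day 0. It was 0.33 (SE 0.17, unadjusted p = 0.0488, adjusted p = 0.77) from day -2 to day 0. The width of the unnamed peak fell from 1733 to 1578 and 1510 bp over these days, and with the width offset the rise was 0.88. Scaled by total counts alone the value was -0.34, where the median matched peak moved by -1.01. That scaling shifts all peaks by nearly the same amount, so it is no separate check of the rise relative to the bulk. The Peg3 promoter peak had 0.21 (SE 0.16, adjusted p = 0.35), and the peak named Usp29, in the fit of days -2 and 0 alone, had 0.23 (SE 0.17, adjusted p = 0.30).

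**Figure D5:**
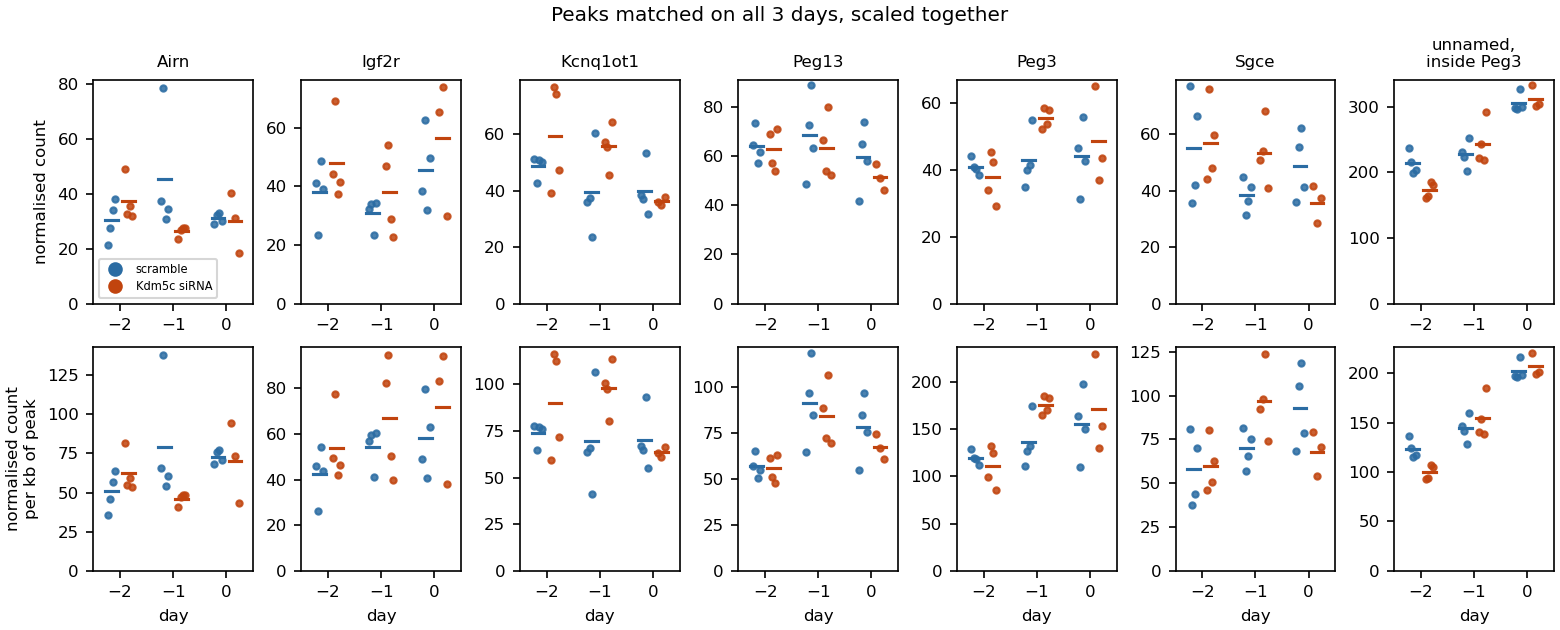
Normalised counts (top) and normalised counts per kb of that day's peak (bottom) at the 6 member peaks matched on all 3 days and at the unnamed peak inside Peg3, scaled over all 23 libraries; dots are libraries, lines arm means, and each axis starts at 0. The unnamed peak goes from 161.1 to 236.5 on day -2 to 296 to 332.7 on day 0, while Sgce is lower on day 0 in counts and higher per kb.

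Among other imprinted genes and their regulators none was called either. Of 41 genes expressed mainly from the maternal copy in some mouse tissue, 17, 14 and 15 had a named peak on days -2, -1 and 0. Of their 17, 16 and 13 tested peaks edgeR called 0 in either direction on each day, and the median log2 fold changes were 0.01, 0.06 and -0.02. An unadjusted p under 0.05 was reached by 2 of 17, 3 of 16 and 0 of 13, beside 4.63%, 5.38% and 5.99% of all peaks tested: Klf14 at 0.87 and Ppp1r9a at 0.66 on day -2, and Ube3a at -0.41, Tnfrsf23 at -0.52 and Pon2 at 0.46 on day -1, named after their values were seen. Of 24 genes of the paternal copy 7, 6 and 8 had a named peak, with 0 of 7, 5 and 6 tested peaks called, 0 with an unadjusted p under 0.05 and medians of -0.18, -0.02 and -0.03. A further list held 25 factors that set, read or keep imprints or bind imprinted regions, such as Uhrf1, Zfp445 and Ctcf. Of these factors 15, 15 and 16 had a named peak, and 0 of 15, 15 and 17 tested peaks were called. The medians were -0.08, 0.06 and 0.04. The one with an unadjusted p under 0.05 was Ctcf on day -1, at -0.39 (SE 0.15, adjusted p = 0.86). Neighbours and host genes of the members had 9, 9 and 8 tested peaks of 18 listed genes, 0 called, with medians of 0.01, 0.07 and -0.08 and values between -0.36 and 0.35; the one with an unadjusted p under 0.05 was Slc38a2 on day -1, at 0.35 (SE 0.18). Trappc9, the host of Peg13, had 0.01, 0.07 and -0.17 on the 3 days, Commd1, the host of Zrsr1, had -0.07, 0.08 and 0.17, and Casd1, beside Sgce, had 0.19, 0.22 and 0.20. No peak carried the name of Kcnq1 or Peg10 on any day. The neighbour list shares genes with the other lists, Trappc9 and Commd1 among them.

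For Airn, Igf2r and Peg3, the members ranked in this way, the 3 genes whose peaks followed each most closely over the 23 libraries held no other member. Pearson's r of log2 normalised counts was taken over 6943 gene-named matched peaks, as a description over libraries that share scaling, day and arm. The members are few among these peaks, so their absence from a list of 3 was likely in any case. Each r listed was picked for being among the highest of 6943, and its size was not tested. Airn was most like Mapk6 (r = 0.64), Nme2 (r = 0.64) and Tmed5 (r = 0.58). Igf2r was most like Cluh (r = 0.77), Stx18 (r = 0.76) and Klhl36 (r = 0.74), and Peg3 most like Rwdd3 (r = 0.77), Gcfc2 (r = 0.74) and Amn1 (r = 0.69). Between members r was 0.11 for Airn with Igf2r, -0.24 for Airn with Peg3 and -0.11 for Igf2r with Peg3. The highest that any of the 3 had with another member was 0.33, between Peg3 and Kcnq1ot1. Kcnq1ot1 stood at rank 606 for Peg3 over the 6943 peaks.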

How the data were processed

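ATAC-seq peaks were counted in 23 libraries of 3T3-L1 cells in 6 groups. The authors deposited 1 table of raw counts per day, with reads per peak, and 1 table of signal values for the gene-named peaks; each signal column equals the deposited counts divided by 1 constant within 1e-08. Both use GRCm38 (mm10), and the tools named are MACS2 2.1.1, Bowtie2 2.2.9, DESeq2 1.24.0, cutadapt 2.3 and HTSeq 0.9.1, per the submitters' processing notes. The settings, the pooling for peak calling, any read shift and the base from which peak starts count are, in the sources used here, not given; coordinates are printed as deposited. Gene names come from the signal tables, and values from the count tables.

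The groups follow the labels. All peaks of a day were filtered (filterByExpr), scaled (TMM) and tested with edgeR 4.0.16 (limma 3.58.1) in R 4.3.3, with Benjamini-Hochberg adjustment over all peaks tested and a threshold of 0.05. Peaks matched 1 to 1 by a reciprocal overlap of 50% (bedtools 2.31.1) gave the fit over days. Pair ratios used the peak of each gene with the most counts and exact permutation tests (Python 3.11.15, scipy 1.17.1, pandas 2.3.3). Fits were tested on simulated data. The alternatives were RLE or total-count scaling, no mitochondrial peaks, no low-count filter, DESeq2 1.42.0, a replicate block, each library left out, an overlap of 25%, a width offset, 1 arm alone and 1 count added to ratios. All peaks naming a member were reported, unnamed peaks inside or within 10 kb of a member by count, genes of 4 lists by count, and the 3 genes most like Airn, Igf2r and Peg3. Members and lists were chosen with earlier results of these data known. Gene spans and promoter windows are from RefSeq (GRCm38.p6).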

Additional observations from a re-analysis of the deposited data

Results flagged for a closer look

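At Airn on day -1, 1 library stood apart from the rest in each arm. Scramble replicate 2 had 60.46 normalised counts where the other scramble libraries had 23.8 to 28.8, and its gap to the nearest was 0.864 of the arm's whole range. Kdm5c siRNA replicate 1 had 18.02 where the others of its arm had 20.9 to 21.2, a gap of 0.887 of a narrow range. These were 2 of the 51 groups of 4 libraries looked at, 43 at member peaks and 8 of pair ratios, or fewer than 1 in 20. The groups are not independent, since the ratios reuse counts of the member peaks. Why these libraries stood apart was not tested.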

How the results depend on the processing

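None of the 24 fold changes of members between the arms was called under any of 326 alternative values, of which 31 turned sign. Peaks called over the whole table on days -2, -1 and 0 numbered 2, 0 and 1. They were 1, 0 and 2 with RLE factors, 1224, 1 and 0 with total counts, 1, 0 and 2 without mitochondrial peaks, 0 on each day with DESeq2, 5, 1 and 0 with the replicate block, and 6 on day 0 without the filter. Leaving out 1 library gave 2 to 11, 0 and 0 to 10. With total counts the sign turned at Peg13 (0.40), Slc38a4 (0.34), Usp29 (0.43), Peg3 (0.33) and the unnamed peak inside Peg3 (0.11) on day -2, Peg13 (0.28) on day -1, and Peg13 (0.35), Slc38a4 (0.0607), Airn (0.41), Sgce (0.14), Kcnq1ot1 (0.44) and Usp29 (0.55) on day 0. It also turned at the larger Sgce peak of day -2 without the filter (-0.0119) and with DESeq2 (-0.0019), and at Kcnq1ot1 on day 0 with the replicate block (0.0474). Apart from total-count scaling, which moves all peaks, the cause was not tested. Leaving out 1 library turned Sgce (-0.12 to 0.18), Usp29 (-0.12 to 0.0844), Slc38a4 (-0.37 to 0.11) and Peg13 (-0.15 to 0.0038) on day -2, Peg13 (-0.25 to 0.0257) and the unnamed peak (-0.0068 to 0.15) on day -1, and Usp29 (-0.13 to 0.12), Peg3 (-0.10 to 0.26), Kcnq1ot1 (-0.22 to 0.0335), Igf2r (-0.0370 to 0.63) and Airn (-0.34 to 0.19) on day 0. The ratio of Airn to Igf2r ran from -0.24 to 0.21, -1.12 to -0.63 and -0.52 to -0.19 on the 3 days, and that of Peg3 to Usp29 from -0.23 to -0.02 on day -2 and -0.22 to 0.47 on day 0.

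Differences of the siRNA effect between days gave 0 to 2, 0 to 7 and 0 called peaks with 1 library left out, for day -1 against -2, day 0 against -2 and day 0 against -1, and no member among them. Day contrasts, in the same order, called 2348, 4394 and 2150 peaks. They called 784, 2820 and 938 with scramble alone, 871, 2045 and 518 with Kdm5c siRNA alone, 13614, 12786 and 8049 with total counts, 4418, 7199 and 4105 at an overlap of 25%, and 1979 to 2386, 3901 to 4418 and 1762 to 2181 with 1 library left out. Members called were 0, 2 and 1. They were 6 and 6 with total counts in the first and second contrast, where the median peak moved by -1.58 and -1.01, and 3 with the width offset in the first. In the second they were 0 with scramble alone, 1 at an overlap of 25% and 1 to 2 with 1 library left out. In the last they were 0 within either arm, 0 with the replicate block, 0 with the width offset and 0 to 1 with 1 library left out. With the width offset Sgce turned to 0.47 in the first and 0.41 in the second. With total counts the unnamed peak inside Peg3 turned to -1.26 and -0.34 in these.

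Replicate numbers were not shown to pair the samples. Over 11 pairs with the same number the correlation was -0.04 to 0.16, and 4 of the 11 Kdm5c siRNA libraries correlated best with their own number. At these low counts the check cannot exclude a pairing. The replicate block changed 1 call at a member, Igf2r for day 0 against day -1 (0.50, edgeR adjusted p = 0.055).

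Depth limits these results: the members had 2 to 122 raw counts per library. In a simulation that changed 200 peaks and left the lowest counts unchanged, a difference of the siRNA effect of 1 log2 unit between days -2 and 0 was called in 35.5% of them. The dispersion between libraries was set by hand there too. Peaks were defined anew on each day, so a gene without a named peak is not shown to be closed.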
